A study of Mus musculus with 17 samples.

Results

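The synaptic vesicle and SNARE genes described here were chosen by name on a mouse oligonucleotide array. A probe set was a member when its single platform gene symbol began with Syt, Stx (which takes in Stxbp), Vamp, Snap, Syn1, Syn2, Syp or Sv2, or with Rab3 and a further letter. This rule used no measured value. It found 62 of 12488 probe sets, which stand for 48 of 8252 named genes, and 13 of these genes had more than 1 probe set. The name rule also took in Snapc2 and Snapc3, subunits of the complex that activates transcription of small nuclear RNAs, which are not vesicle genes.

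The tissue was mouse brain, grey and white matter from the area supplied by the middle cerebral artery, measured on 17 arrays. Each of 12 arrays carried RNA pooled from 6 brains, 3 arrays per group: saline (control pools), AEOL 10150 without ischemia (drug control pools), ischemia (ischemic pools) and, as treated ischemic pools, ischemia plus AEOL 10150. A single brain given ischemia and AEOL 10150 was put on each of the remaining 5 arrays. Titles gave the groups of the pools, but drug control pool 1 is described as saline and treated ischemic pool 1 without the drug. Ischemia lasted 1 h and was followed by 6 h of reperfusion, and control tissue was taken 6 h after the injection. AEOL 10150 is a catalytic antioxidant; its dose, and the strain, age and sex of the mice, were not given in the sources used here. Nothing in the labels says that the pools of a group came from separate mice, so p-values between groups of pools measure the spread between pools, which may be technical. P-values of the single brains against pools rest on a shared spread over brains and pools, though these need not vary alike.

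SNARE proteins drive the fusion of a transmitter vesicle with the plasma membrane of the nerve terminal. Vamp proteins on the vesicle zip together with a syntaxin and Snap25 on the plasma membrane, synaptotagmins sense the calcium that triggers release, and Munc18-type syntaxin-binding proteins, Rab3 proteins and synapsins prepare and hold the vesicles. In an ischemic brain, depolarised terminals release glutamate in excess, and part of that release runs through this machinery.

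Levels are log2 intensities after every array was brought to the same trimmed mean. Intensities under 109.5 were raised to that value, a floor of 6.77 on the log2 scale, so a level of 6.77 means "at or below the floor". A level is compared only within 1 probe set, never between probe sets. Of the members, 42 were above the floor on all 17 arrays (67.7%, against 58.4% of all probe sets), 19 on some and 1, Syt8, on no array. Of 18 neuron markers on the array, each read on its brightest probe set, 18 were above the floor on every array. These general markers cannot check which area of the brain was taken. Ischemia was visible in the response genes used as a check, all 10 of which rose in the ischemic pools over the control pools, by a median of 2.61 on the log2 scale (limma, Benjamini-Hochberg adjusted p below 0.05). These 10 genes were chosen with earlier results of these data known, so their rise is not an independent check.

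Among the plasma membrane SNAREs, Snap25 and Stx1a supply the plasma membrane helices of the neuronal SNARE bundle. Snap25 measured 16.18, 16.28 and 16.28 in the control pools and 16.30, 16.28 and 16.24 in the ischemic pools. It measured 16.48, 15.76 and 16.25 in the drug control pools and 16.19, 16.29 and 16.15 in the treated ischemic pools. Its groups overlapped throughout, and the lowest value was that of drug control pool 2. Stx1a measured 13.37, 13.13 and 13.70 in the control pools against 13.17, 12.97 and 13.72 in the ischemic pools, again with overlap. Averaged over both drug arms, the ischemia difference was 0.04 for Snap25 (SE 0.14, 95% interval -0.27 to 0.34) and -0.07 for Stx1a (SE 0.18, interval -0.46 to 0.33).

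Vamp2 is the vesicle partner of Snap25 and Stx1a in most forebrain terminals. Its probe set 98926_at stayed between 15.56 and 16.05 on all 17 arrays, with means (± SD, n = 3 pools each) of 15.64 ± 0.11 in the control, 15.76 ± 0.11 in the drug control, 15.67 ± 0.10 in the ischemic and 15.74 ± 0.11 in the treated ischemic group. The ischemia difference over both arms was 0.01 (SE 0.11, interval -0.24 to 0.26), the narrowest among the core genes. On probe set 93652_i_at of Vamp1, a related vesicle SNARE, the pools ran from the floor (ischemic pool 2) to 12.79, and the same difference had an interval of -3.17 to 1.62.

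Of the vesicle membrane and coat genes, Syp encodes synaptophysin, Syn2 a synapsin that tethers reserve vesicles, and Snap91 the clathrin adaptor AP180. Syn2 measured 13.87, 13.47 and 13.80 in the control pools and 13.48, 13.10 and 13.62 in the ischemic pools. The same gene measured 13.87, 13.21 and 13.88 in the drug control pools and 13.85, 13.42 and 13.23 in the treated ischemic pools. Its groups overlapped in both arms, and the difference over both arms was -0.23 (SE 0.18, interval -0.64 to 0.17). For Syp the difference was -0.25 (SE 0.22, interval -0.73 to 0.24), or -0.12 without ischemic pool 2 or treated ischemic pool 2, and for Snap91 it was -0.04 (SE 0.13, interval -0.32 to 0.25). None of these intervals excluded 0.

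**Figure D1:**
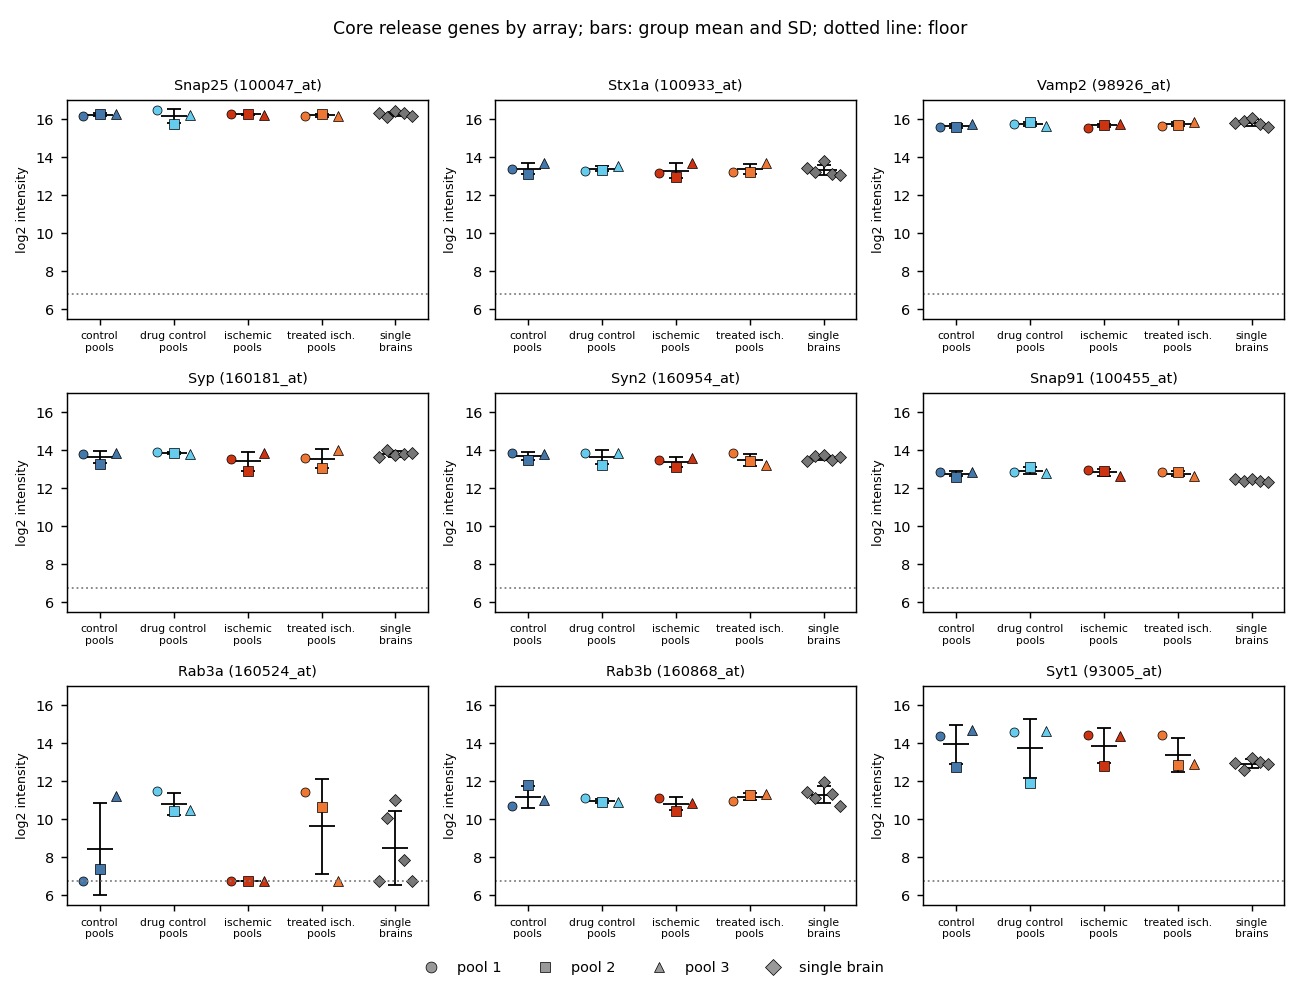
Log2 intensity (vertical axis, the same in all panels) of 9 core release genes on the 17 arrays, by group; points are arrays, marked by pool number, and bars give the group mean and SD. Snap25 and Vamp2 stay within 0.72 and 0.49 log2 units over all arrays, Rab3a jumps between the floor and 11.50, and Syt1 has a low pool 2 in every pooled group.

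Ischemia was tested in 59 members that passed the filter on dim signals (above the floor on at least 3 of the 12 pooled arrays); Rab3d, Syt8 and 1 of the Snapc3 probe sets (162054_r_at) did not pass. No member was called in ischemic against control pools by limma at an adjusted p below 0.05, where 0.214% of all tested probe sets were called, and no member had an unadjusted p below 0.05 (4.12% of all). With the drug in both groups, again no member was called (0.0877% of all) or had an unadjusted p below 0.05 (3.44% of all). Over both drug arms no member was called (0.448% of all) or had an unadjusted p below 0.05 (4.92% of all), and the smallest adjusted p of a member was 1. The median member difference was -0.06 without the drug, -0.04 with it and -0.04 over both arms, against 0.03, -0.02 and 0.01 over all tested probe sets. The 2 ischemia comparisons used separate arrays, whereas the comparison over both arms contains both.

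The arrays bounded these differences to different degrees. Over both arms the 95% interval lay within a 2-fold change either way for 38 of 59 members and within 1.5-fold for 24, and the median half-width was 0.51 log2 units. Snap25, Vamp2 (98926_at), Stx1a and Snap91 were among the 24. Syt1, Vamp1 and Rab3a (160524_at, with each ischemic pool at the floor) were not among the 38. With the replicate number of the pool as a block, 48 of 59 intervals lay within 2-fold. The interval of Syt1 was then -0.94 to 0.53, inside 2-fold, and that of Vamp1 (93652_i_at) -1.76 to 0.20, which was not. Because the tissue is a mixture, fewer cells of a type and less RNA per cell cannot be told apart.

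**Figure D2:**
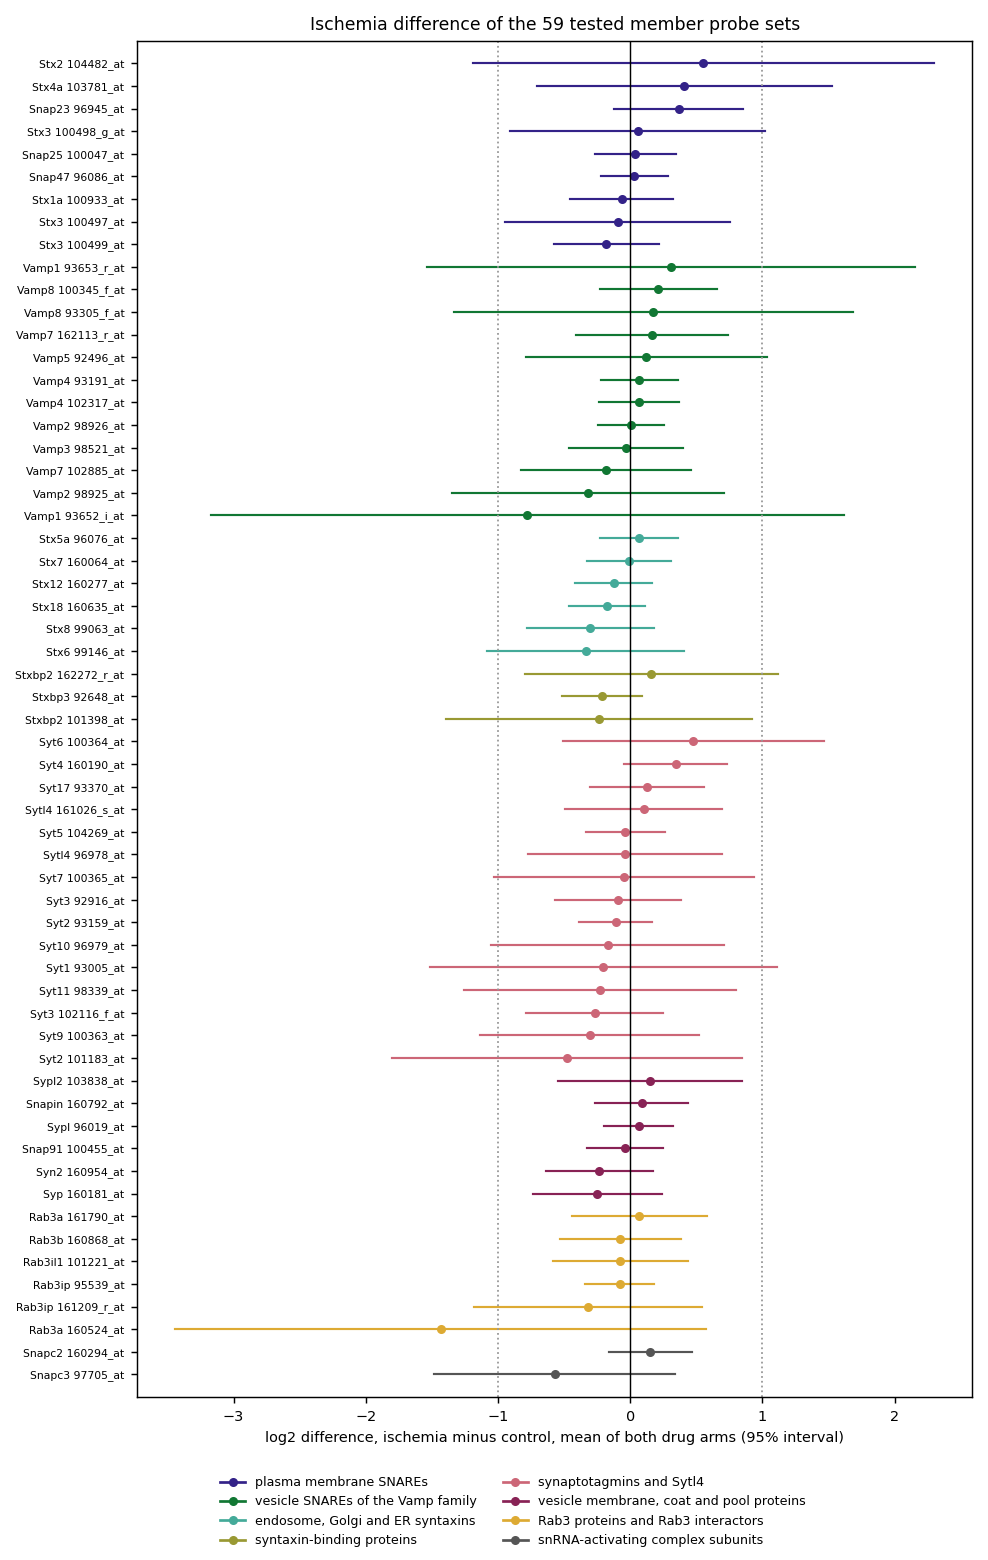
Log2 difference between ischemic and control pools, averaged over both drug arms (horizontal axis), for the 59 tested member probe sets, coloured by role; points are estimates, lines are 95% intervals, dotted lines mark a 2-fold change. Every interval includes 0, and 38 lie between the dotted lines.

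By role, 6 of 9 plasma membrane SNARE probe sets and 8 of 12 Vamp probe sets were higher in ischemia over both arms, with medians of 0.04 and 0.07. Among the synaptotagmins and the related Sytl4 11 of 15 probe sets were lower (median -0.09), as were 5 of 6 endosome, Golgi and ER syntaxins (median -0.15) and 5 of 6 Rab3 proteins and interactors (median -0.08). Over all tested probe sets 52.5% were higher in this comparison, and over all tested members 42.4%. No test was run on the counts by role, and some genes enter them with several probe sets. None of the members in them passed the threshold alone.

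Syt4 and Snap23 had the smallest p-values among the members that were higher in ischemia. Syt4 is a synaptotagmin whose gene is known to respond to neuronal activity. It measured 10.96, 10.90 and 11.38 in the control pools and 11.67, 11.71 and 10.97 in the ischemic pools. With the drug it measured 10.96, 11.15 and 10.85 without ischemia and 11.20, 11.13 and 11.56 with it. The groups overlapped in each arm, and the difference over both arms was 0.34, or 1.27-fold (SE 0.17, interval -0.04 to 0.73, unadjusted p = 0.0768 and adjusted p = 1 by limma). Snap23, the broadly expressed relative of Snap25, differed by 0.37 over both arms (SE 0.22, interval -0.13 to 0.86). Its values were 9.20, 9.49 and 9.74 in the ischemic against 8.45, 8.84 and 9.48 in the control pools (means 9.48 and 8.92). With the drug they were 9.52, 8.60 and 9.22 with ischemia against 8.77, 9.14 and 8.91 without it (means 9.12 and 8.94). The Snap23 groups overlapped in each arm.

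Stxbp3 encodes Munc18c, the syntaxin-binding protein of non-neuronal exocytosis. It measured 10.98, 10.92 and 11.12 in the control pools and 10.78, 10.59 and 10.49 in the ischemic pools, so each ischemic pool lay below each control pool. The difference was -0.39, or 1.31-fold lower (SE 0.19, interval -0.81 to 0.04, unadjusted p = 0.0684, adjusted p = 1 by limma). With the drug the values were 10.62, 10.97 and 11.02 without ischemia against 10.98, 10.57 and 10.95 with it, which overlapped, and the difference was -0.04 (SE 0.19). The difference between the responses was 0.35 (interval -0.25 to 0.95, unadjusted p = 0.22 by limma). Groups failed to overlap for 2 members without the drug, the other being Vamp4 (102317_at, 0.20 higher), and for 1 with it, Snapc2 (0.38 higher), where 7.08% and 7.39% of all tested probe sets did so.

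The promoters of Stxbp3 and Syn2 are shown as examples. Each holds a match for the site of a factor family whose members Atf3 and Egr1 rose in the same pools. Rab3ip and Vamp4 hold the same EGR match as Syn2. Any part of these factors in the Stxbp3 and Syn2 signals was not tested. Atf3 rose by 3.16 (SE 0.17, adjusted p = 2.99e-05) and Egr1 by 1.88 (SE 0.14, adjusted p = 0.000283) over both arms in the limma fit. Sequences are RefSeq windows of 250 bases before a transcript start on GRCm38.p6, given 5′ to 3′ on the gene's strand, with the match in capitals. The Stxbp3 window is chr3:108840503-108840752, minus strand, with the cyclic AMP response element TGACGTCA starting 108 bases before the start. The Syn2 window is chr6:115134652-115134901, plus strand, with the EGR site GCGNGGGCG starting 41 bases before the start.
Stxbp3: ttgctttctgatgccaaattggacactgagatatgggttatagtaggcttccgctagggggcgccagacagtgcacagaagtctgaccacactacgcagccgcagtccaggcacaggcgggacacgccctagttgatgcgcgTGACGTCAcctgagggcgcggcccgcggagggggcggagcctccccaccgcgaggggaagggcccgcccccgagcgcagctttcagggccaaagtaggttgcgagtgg
Syn2: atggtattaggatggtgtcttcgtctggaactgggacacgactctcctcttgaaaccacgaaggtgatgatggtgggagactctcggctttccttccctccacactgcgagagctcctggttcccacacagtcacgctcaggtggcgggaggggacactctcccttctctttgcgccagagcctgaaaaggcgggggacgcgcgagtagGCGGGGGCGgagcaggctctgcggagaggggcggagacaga

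Windows were found for 39 of the 48 member genes, 56 windows in all, and both strands were searched. TGACGTCA was in 1.79% of member windows against 1.55% of the 32851 windows in the table. GCGNGGGCG was in 5.36% (Rab3ip, Syn2 and Vamp4) against 4.7%, and the AP-1 site TGANTCA in 5.36% (Sypl, Syt2 and Syt8) against 6.75%. The heat shock pattern GAANNTTC was in 12.5% (7 windows, of Rab3a, Rab3il1, Stx6, Syn2, Sypl2 and Vamp8) against 6.69%. Both Rab3il1 windows overlap and hold the same site, 64 and 120 bases before their starts, so it is counted more than once. A match is a run of letters, not a measured binding site, and neither Stxbp3 nor Syn2 passed the threshold in ischemia.

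AEOL 10150 after ischemia, treated ischemic against ischemic pools, gave no called member (limma, 0.00975% of all tested probe sets). An unadjusted p below 0.05 was seen for 2 members, Stx3 and Rab3a, or 3.39% against 1.47% of all. These comparisons share the ischemic or treated ischemic arrays with those above.

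Stx3 is a plasma membrane syntaxin of ribbon synapses and polarised cells. Its probe set 100497_at measured 9.03, 8.43 and 9.21 in the ischemic pools and 7.48, 7.65 and 6.77 in the treated ischemic pools. The groups did not overlap, as in 3.82% of all tested probe sets, and the difference was -1.59 (SE 0.54, unadjusted p = 0.0148, adjusted p = 1 by limma). Treated ischemic pool 3 was at the floor, so this size depends on the floor and no fold is given: with a floor at the 40th percentile of intensities the difference was -0.19. The other Stx3 probe sets differed by -0.03 (100499_at, SE 0.25) and 0.13 (100498_g_at, SE 0.62). The 5 single brains, which also had ischemia and the drug, measured 8.06 to 9.06 on 100497_at (median 8.74), above each treated ischemic pool.

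Rab3a is the main Rab3 protein of brain vesicles. Its probe set 160524_at was at the floor in each ischemic pool and measured 11.45, 10.66 and 6.77 in the treated ischemic pools. Control pools measured 6.77, 7.37 and 11.21, and drug control pools 11.50, 10.46 and 10.51. The signal thus ran from the floor to 11.21 among the control pools alone, and among the single brains from 6.77 to 11.03 (median 7.88). The unadjusted p of 0.0492 (adjusted p = 1 by limma) compares values set to the floor in 4 of the 6 pools, so no size of the difference is given. The second Rab3a probe set (161790_at) was above the floor on 3 of 17 arrays. Rab3b, a related Rab3 protein, was above it on all 17 and differed by 0.37 (SE 0.29, interval -0.28 to 1.02).

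Without ischemia, drug control against control pools, no member was called by limma (0.00975% of all). The 1 member with an unadjusted p below 0.05 (1.69%, against 2.57% of all) was the small nuclear RNA factor Snapc3 (97705_at), with 8.10, 9.74 and 6.77 in the control and 6.77, 6.99 and 6.77 in the drug control pools. Most of these are at or near the floor, and the difference of -1.36 (SE 0.58) was -0.59 without control pool 2 and -2.08 without control pool 3. For 1 member the groups did not overlap, Vamp4 (93191_at, -0.24), where 4.65% of all did so. The test of whether the drug altered the ischemia difference called no member (0.0% of all), and no member had an unadjusted p below 0.05 (2.08% of all). Median member differences were -0.01 for the drug after ischemia and 0.00 without it.

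Within groups, part of the set varied together with the replicate number of the pool. Fitted as a factor beside group over the 12 pools, a test added after the values had been seen, the number called 9 of 59 members by limma (15.3%, against 8.53% of all tested probe sets), and 22 had an unadjusted p below 0.05 (27.6% of all). In 7 of the 9 pool 2 was lower than the mean of pools 1 and 3 (5.24% of all), and in 2, Stx4a and Syt2 (101183_at), it was higher (3.28% of all). The 7 were Vamp1 (93652_i_at), Vamp2 (98925_at), Syt1, Syt11, Stx6, Vamp7 (102885_at) and Syt9. Syt9 is no case of a low pool 2: it was above the floor in the 4 pools numbered 1 alone, passed the filter through them and so had to differ. Syt2 (101183_at) was likewise at the floor in 6 of the 12 pools, none of them numbered 2. The count was 4 without control pool 1, drug control pool 2 or ischemic pool 3 (4.35%, 4.27% and 4.74% of all tested probe sets) and 5 without control pool 2, drug control pool 1 or ischemic pool 1 (4.41%, 4.91% and 6.15% of all). It was 2 without ischemic pool 2 (3.34% of all) and 15 without treated ischemic pool 3 (24.0% of all). Treated ischemic pool 2 is described in the labels as a first replicate, against its title, and without the treated ischemic pools the count was 11 of 57 (14.1% of all).

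Syt1 is the fast calcium sensor of release. It measured 14.40, 12.77 and 14.70 in the control pools and 14.62, 11.93 and 14.68 in the drug control pools. Ischemic pools measured 14.43, 12.83 and 14.39, and treated ischemic pools 14.45, 12.85 and 12.91. Pool 2 was the low array of every group, joined by treated ischemic pool 3 and by all 5 single brains (12.59 to 13.24), and over the pools number 2 was 1.73 log2 units below the others (adjusted p = 0.0387 by limma). The ischemia difference of Syt1 over both arms was -0.20 with an SE of 0.59, far wider than that of Snap25.

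The 2 probe sets of Vamp2 did not share this pattern. Vamp2 98925_at measured 13.72, 12.39 and 13.93 in the control and 13.88, 12.15 and 14.03 in the drug control pools. Ischemic pools measured 13.08, 11.90 and 13.83 on it, and treated ischemic pools 13.68, 12.43 and 13.28. Pool 2 was lowest each time, by 1.47 on average (adjusted p = 0.00666 by limma), while 98926_at, for the same gene, stayed within 0.49 log2 units. Stx4a, a plasma membrane syntaxin found in many cell types, went the other way, with 12.48, 12.74, 12.69 and 12.63 in the pools numbered 2 against 10.33 to 11.89 in the rest.

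**Figure D3:**
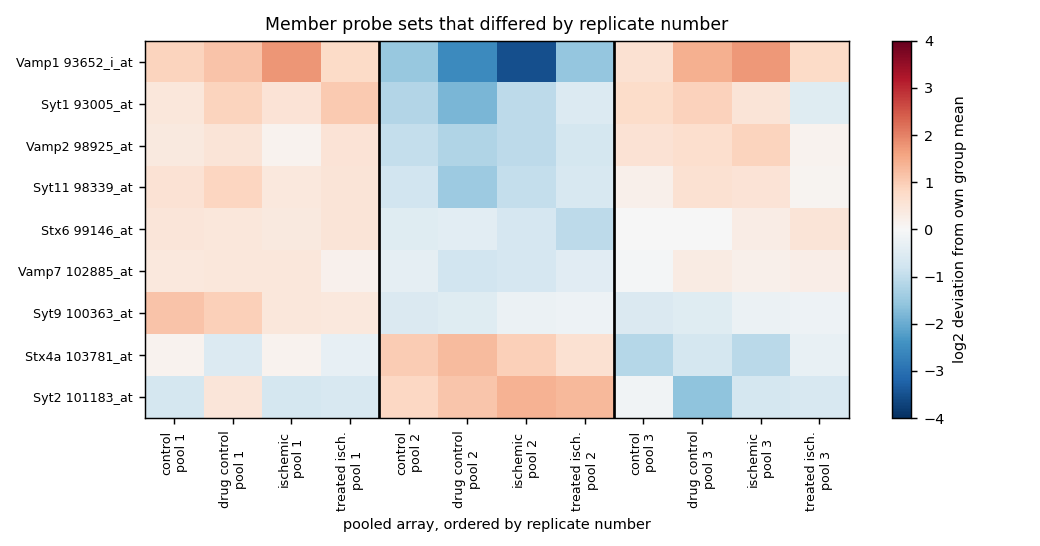
Deviation of each pooled array from its own group mean (colour, log2 units) for the 9 member probe sets that differed by replicate number; columns are the 12 pools, grouped by number. The pools numbered 2 lie below their group mean for 7 probe sets and above it for Stx4a and Syt2 (101183_at), in all 4 groups; for Syt9 the pools numbered 2 and 3 are both at the floor.

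The Gapdh control on the array, read near the 3′ and the 5′ end of its transcript, had a 3′/5′ ratio of 1.16 to 1.56 in the pools numbered 2 and 0.90 to 1.19 in the others. A higher ratio means less signal from the 5′ end. As a slope beside group on the log2 ratio, again added after the values had been seen, it called 4 of 59 members by limma (6.78%, against 2.25% of all), each falling as the ratio rose. They were Syt1 (-4.41 log2 units per doubling of the ratio, SE 0.64, adjusted p = 0.0168), Syt11 (-3.38, SE 0.55, adjusted p = 0.022), Stxbp2 (101398_at) and Vamp1 (93652_i_at). The count was 0 without drug control pool 1, drug control pool 2 or ischemic pool 2 (0.353%, 0.0% and 0.0% of all) and 1 without control pool 1 or treated ischemic pool 2 (0.5% and 0.687% of all). It was 2 without control pool 2, drug control pool 3, ischemic pool 1 or ischemic pool 3 (1.98%, 1.26%, 0.932% and 1.23% of all). Without the treated ischemic pools it was 3 of 57 (0.877% of all), and the adjusted p of Syt1 was then 0.0606 by limma. The actin control ratio, tested alike, called no member (0.0% of all), and 5 members had an unadjusted p below 0.05 (9.72% of all).

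On all 17 arrays Syt1 measured at least 14.39 where the Gapdh ratio was at most 1.09, and at most 13.24 where it was at least 1.15, with no array between. The single brains had ratios of 1.15 to 1.27. The low arrays included all 7 deposited on another intensity scale, treated ischemic pools 2 and 3 and the single brains. Control, drug control and ischemic pools numbered 2, on the common scale, were the rest. The part of this ratio in the low Syt1 signals was not tested further, and it moves together with the replicate number and in part with the scale.

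**Figure D4:**
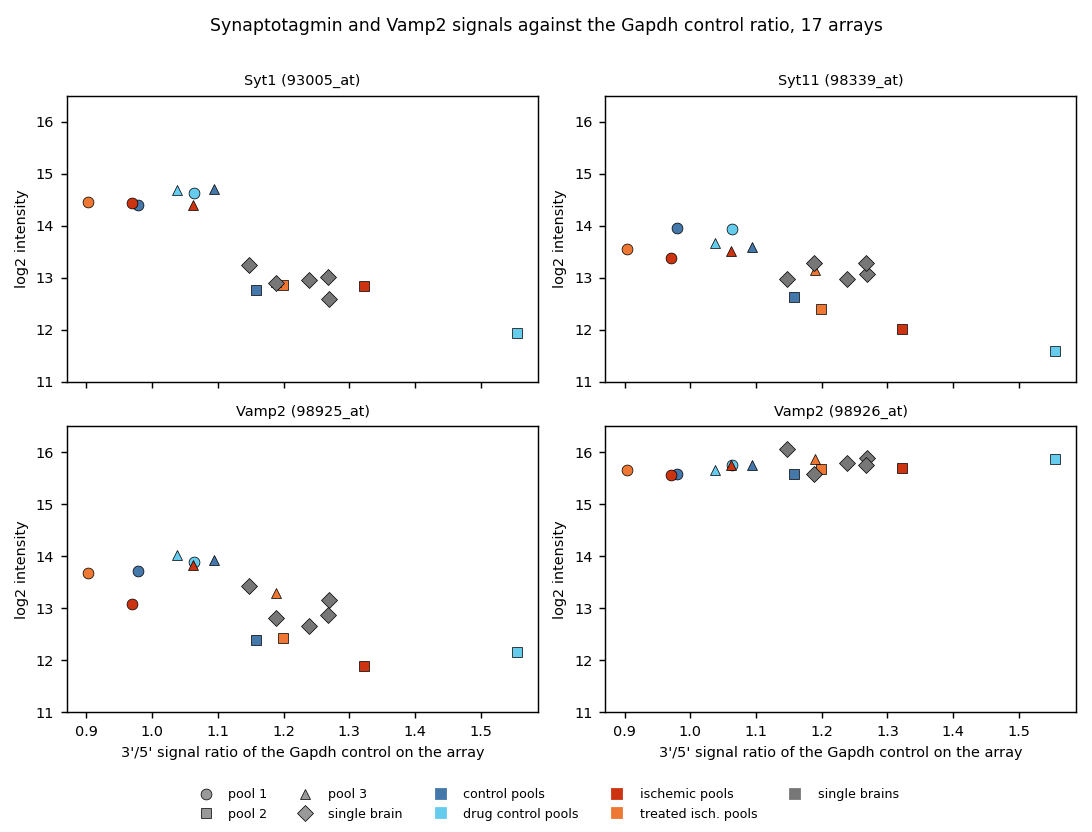
Log2 intensity of Syt1, Syt11 and both Vamp2 probe sets (vertical axis, the same in all panels) against the 3′/5′ signal ratio of the Gapdh control (horizontal axis, no unit) on 17 arrays; colour gives the group and shape the pool number. Syt1 splits into arrays at 14.39 or more and at 13.24 or less, while Vamp2 98926_at stays between 15.56 and 16.05.

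The single treated ischemic brains were compared with the drug control pools and with the ischemic pools. All 5 were deposited on another intensity scale than those pools and hold 1 brain each in place of 6, so scale, pooling and group cannot be told apart. Against the drug controls no member of 55 tested was called by limma, while 6.51% of all tested probe sets were, and 11 members of the 55 had an unadjusted p below 0.05 against 28.1% of all. Against the ischemic pools no member of 54 was called (1.84% of all), and 8 (14.8%) had an unadjusted p below 0.05 against 23.2% of all. Groups did not overlap for 4 and 6 members, where 21.0% and 17% of all tested probe sets did so.

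Snap91, the AP180 coat adaptor, came closest to the threshold. It measured 12.49, 12.37, 12.50, 12.38 and 12.31 in the single brains, against 12.85, 13.13 and 12.81 in the drug control pools and 12.98, 12.92 and 12.63 in the ischemic pools. Each single brain lay below each of the 12 pools, including the treated ischemic pools 2 and 3 (12.84 and 12.63), which share the other intensity scale. The difference from the drug controls was -0.52, or 1.44-fold lower (SE 0.13, adjusted p = 0.0504 by limma, within a range of 0.0239 to 0.102 over the alternatives).

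Vamp4, a vesicle SNARE of the trans-Golgi network and endosomes, was split between its probe sets. On 102317_at the single brains measured 10.80, 10.70, 10.79, 11.06 and 10.61 against 11.13, 11.36 and 11.37 in the drug control and 11.31, 11.61 and 11.34 in the ischemic pools, without overlap. The differences were -0.49 (SE 0.14, adjusted p = 0.0715) and -0.63 (SE 0.15, adjusted p = 0.0736) by limma. On 93191_at the single brains, at 12.31 to 12.50, overlapped both groups. Snap23 was 0.93 lower than in the ischemic pools (SE 0.26, adjusted p = 0.0981 by limma), with 8.15 to 9.09 against 9.20 to 9.74.

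**Figure D5:**
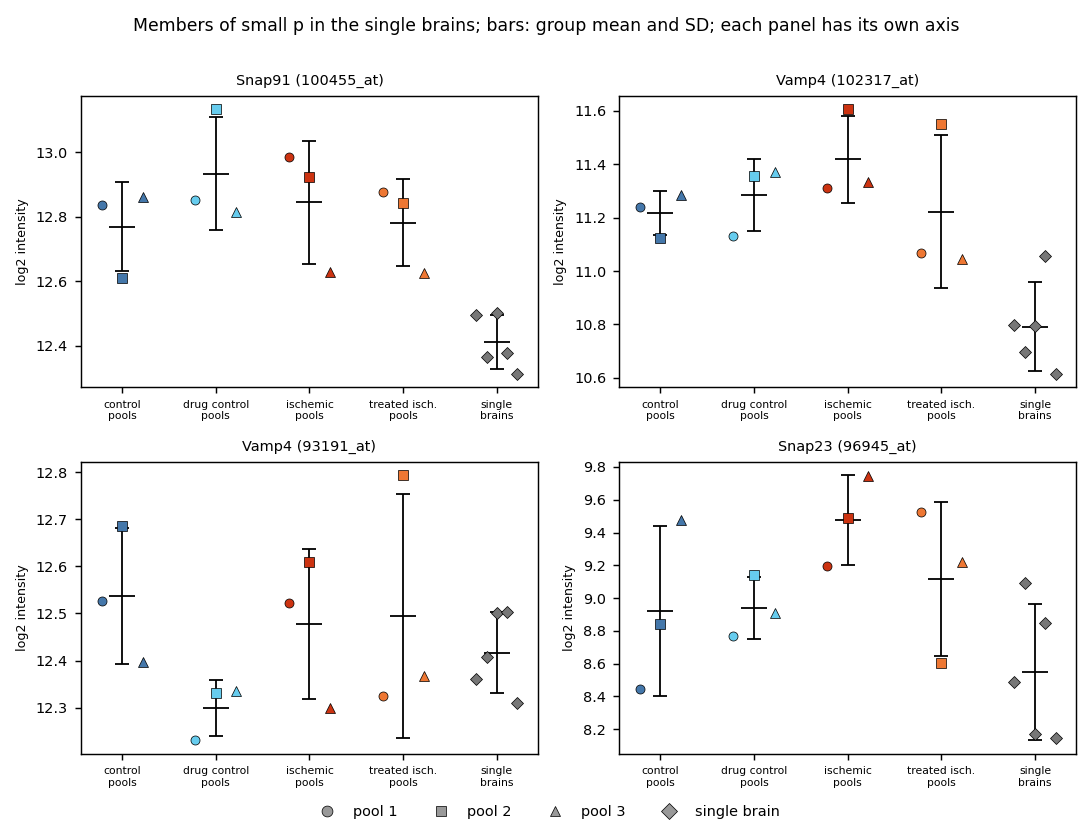
Log2 intensity of Snap91, both Vamp4 probe sets and Snap23 on the 17 arrays by group (each panel has its own vertical axis); points are arrays, bars the group mean and SD. Snap91 in the single brains (12.31 to 12.50) lies below all 12 pools, and Vamp4 102317_at is low there while 93191_at is not.

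Which members passed in the comparison with the drug controls changed with single arrays. Without drug control pool 2, 4 of 54 members were called (Stx4a, Syt1, Syt11 and Vamp2), where 10.1% of all tested probe sets were. Without drug control pool 3, 2 of 55 were called (Stx3 and Syt2, 2.4% of all), and without brain 11, 1 of 55 (Vamp8, 2.83% of all). In the comparison with the ischemic pools, 1 of 54 was called without ischemic pool 1 (Stx2, 4.6% of all), without pool 2 (Syt1, 2.22% of all) or without pool 3 (Vamp1, 2.87% of all).

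Among the single brains the widest ranges were those of Rab3a (160524_at, 4.25 log2 units), Vamp8 (93305_f_at, 3.26) and Vamp5 (2.39), and each of them reached the floor in at least 1 brain. Syt2 (93159_at), a synaptotagmin of fast-firing neurons, was dimmest in brain 13 at 11.08 and brightest in brain 14 at 12.87, while the pools stayed between 12.20 and 12.72. Snap25 spanned 0.30 and Stx5a 0.11 log2 units over the same brains.

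Markers of other cells moved in some of these comparisons, and their part in the member values was not tested. In ischemia over both arms, 6 of 6 striatal neuron markers were lower (median -0.54, none called), with summed intensities of 71472 to 83105 in the control and 49680 to 60220 in the ischemic pools, and of 75128 to 80718 and 41978 to 67019 in the drug control and treated ischemic pools. The 18 general neuron markers had a median difference of -0.06, with 7 higher, 11 lower and none called, and summed 334076 to 390490 in the control against 344319 to 383783 in the ischemic pools. Of 10 endothelial and mural markers 7 were higher and 3 lower (median 0.35, none called), with sums of 10675 to 16057 in the control and 13129 to 16840 in the ischemic pools. The 3 red blood cell markers on the array summed 3111 to 4438 in the control and 8144 to 11194 in the ischemic pools, against 2790 to 5165 and 3439 to 9512 in the drug control and treated ischemic pools (median 0.16, none called). Of these markers 2 were higher, Hba-a1 (1.25, SE 0.30) and Alas2 (0.16, SE 0.45), and 1 was lower, Slc4a1 (-0.60, SE 0.27). Of 11 tested neutrophil markers 9 were higher and 2 lower (median 0.45), and S100a8, a calcium-binding protein of these cells, was the 1 called (1.35, SE 0.23, adjusted p = 0.0331 by limma). The 12 neutrophil markers on the array summed 9374 to 15111 in the control and 12360 to 15020 in the ischemic pools, and 9255 to 14782 and 10648 to 16216 in the drug control and treated ischemic pools; Ngp was at the floor on all 17 arrays. No astrocyte, oligodendrocyte, microglia or choroid plexus marker was called in this comparison.

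Against the drug controls the single brains had 9 of 9 tested oligodendrocyte markers higher (median 0.49, none called, summed 143454 to 191465 against 108306 to 135111). In the same comparison 6 of 6 striatal markers were lower (median -0.80, summed 32678 to 74162) with Drd2, a dopamine receptor, called, and 12 of 18 neuron markers were higher (median 0.09, none called, summed 370902 to 416890 against 351446 to 384002). Further called markers, all lower, were the astrocyte marker Vim (with 7 of 9 of its list higher, summed 135416 to 163720 against 126151 to 133877), the neutrophil enzyme gene Mpo (7 of 10 lower, 9827 to 12904 against 9255 to 14782) and the red cell anion exchanger Slc4a1 (3 of 3 lower, 2067 to 5415 against 2790 to 5165). Microglia markers were higher for 6 of 8 and endothelial and mural markers for 8 of 10, none called. In this comparison with the drug controls 6.51% of all tested probe sets were called, and scale, pooling and group cannot be told apart. Against the ischemic pools 9 of 9 tested neutrophil markers were lower (median -0.59) with Ltf called (by limma). Of 2 tested red cell markers Hba-a1, a hemoglobin chain, was called lower (by limma), and the other was higher. In that comparison 1.84% of all tested probe sets were called, and scale, pooling and group cannot be told apart there either.

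Genes of the vesicle cycle outside the name rule were taken from a list of 73, of which 41 were on the array and 40 tested. In ischemia over both arms 14 were higher and 26 lower, none was called or had an unadjusted p below 0.05 by limma, and the median was -0.03. The smallest p-values belonged to Syngr2, a synaptogyrin (0.64, SE 0.39), and Clta, a clathrin light chain (0.12, SE 0.14), among higher genes, and to Nsf, the ATPase that takes SNARE bundles apart (-0.35, SE 0.23), and Bsn, an active zone scaffold (-0.95, SE 0.69), among lower ones. In the single brains against drug controls, 2 of 39 tested were called higher and 2 lower, where 6.51% of all tested probe sets were called. Scale, pooling and group cannot be told apart there. By limma Syngr2 was higher by 1.49 (adjusted p = 0.0086) and Ap2s1, a clathrin adaptor subunit, by 3.15 (adjusted p = 0.0408). The pools varied widely on Ap2s1, whose ischemia difference was -0.62 without and 0.63 with the drug (SE 1.27 each). Cplx2, a complexin that clamps SNARE bundles, was lower by 1.47 (adjusted p = 0.0294 by limma). Dnm2, a dynamin that cuts off endocytic vesicles, was lower by 1.42 (adjusted p = 0.0488 by limma). Ap2s1 and Cplx2 were also called against the ischemic pools (1.84% of all), at 2.80 and -1.63.

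Of 12 tested SNAREs and partners that work outside the synapse, none was called in the pooled comparisons. Against the drug controls the single brains had 1 of 11 tested called higher and 1 lower, where 6.51% of all tested probe sets were called. Bnip1, an ER SNARE, was lower by 0.98 (adjusted p = 0.0192 by limma). Vps45, a Munc18 relative of endosomes, was higher by 2.37 (adjusted p = 0.0407 by limma). The pools varied widely on Vps45, with an SE of 1.135 for ischemia without the drug. Scale, pooling and group cannot be told apart here either.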

How the data were processed

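The deposited values are linear intensities, 1 per probe set and array; the software the authors used is not given in the sources used here. Trimmed means (2nd to 98th percentile) were 2500 on 10 arrays and 129 to 210 on 7 (all single brains and 2 treated ischemic pools, numbers 2 and 3). Each array was rescaled to 2500, floored at the 25th percentile of the scaled pools, and put on log2. Titles gave the groups. Against their titles, drug control pool 1 is described as saline and treated ischemic pool 1 without the drug. Treated ischemic pool 2 is described as a first replicate, and brain 11 is titled 4. limma 3.58.1 (R 4.3.3) fitted the 12 pools together and each single-brain comparison apart, on 10259, 9907 and 9889 probe sets that exceeded the floor on 3 or more arrays, two-sided, Benjamini-Hochberg over all of them, threshold 0.05. The fits were tested on simulated data. With 3 arrays a group, their number limits precision. Symbols are the platform's.

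Named were 10 core genes, the 3 smallest p in each direction per comparison and the 3 widest single-brain ranges; genes called by replicate number or Gapdh ratio, and probe sets set beside a named one, were chosen after their values were seen. Members and lists were chosen with earlier results of these data known. Same-numbered control, drug control and ischemic pools deviated together (r 0.332 to 0.571 in 9 pairs), whereas pairs with treated ischemic pools ran from -0.335 to 0.401, so the replicate block is an alternative. Other alternatives were the floor, filter, normalization, prior, labels, scale set and leaving out each array.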

Additional observations from a re-analysis of the deposited data

Results flagged for a closer look

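Within the 5 single brains, 1 brain stood apart from the other 4 for 4 of the 56 member probe sets that varied among them. For 2 of these the other 4 brains were at the floor, so that any value above it stands apart, and the other 2 are about what chance gives (1 group in 20). Stx5a, a Golgi syntaxin (96076_at), measured 12.15 in brain 12 against 12.04 to 12.06 in the others, a narrow spread in which a small step stands out. Syt3 (92916_at), a synaptotagmin, measured 12.24 in brain 11 against 12.55 to 12.66. Syt2 (101183_at) measured 7.75 in brain 16 and Snapc3 (162054_r_at) 7.75 in brain 13, with the other 4 brains at the floor of 6.77 each time.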

How the results depend on the processing

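No member was called in any of the 114 alternatives for the pooled comparisons, where the count was 0 as in the main setting. These included the replicate block, the groups from the descriptions and the fit without the 2 pools of unlike labels. With the replicate block, calls over all tested probe sets went from 22 to 35 for ischemia without the drug. They went from 9 to 12 with it and from 46 to 65 over both arms. For the drug without ischemia they went from 1 to 0. Of 144 alternatives for a median, 139 stayed within the spread of the arrays' medians. The exceptions were -0.19 for ischemia without the drug and 0.11 for the difference between the responses with values as deposited, 0.093 for ischemia with the drug and 0.091 for the difference with the scale set as a block, and -0.17 for the single brains against drug controls without drug control pool 2 (leaving out 1 array, -0.17 to -0.0074). In that comparison the count of members was 2 without the filter (Snap91 and Snapc2, 5.17% of all probe sets), 3 with the floor at the 40th percentile (Snap91, Vamp4 and Snapc2, 12.0% of all), 1 after quantile normalization (Snapc2, 5.65% of all), 1 with a trended robust prior (Snap91, 9.21% of all) and 0 to 4 (2.4% to 10.1% of all) when 1 array was left out. Against the ischemic pools it was 1 with the floor at the 40th percentile (Vamp4, 5.03% of all) and 0 to 1 when 1 array was left out. Leaving out 1 pool gave 2 to 15 members for the replicate number and 0 to 6 for the Gapdh ratio. The cause of these shifts was not tested. The planned floor at the 10th percentile was not run, since that intensity is below 0; a floor at the 20th percentile was added after the data were seen. Signals near the floor (Rab3a, Stx2, Vamp8, Snapc3) limit what can be said of those members.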
